A study of Mus musculus with 8 samples.

Results

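The genes described here are 10 circadian clock genes, Per1, Per2, Per3, Ciart, Bhlhe40, Dbp, Tef, Nr1d1, Nr1d2 and Arntl, measured in fat of obese mice. They were chosen because Per1 and Per2 on the one hand and Arntl on the other had moved in opposite directions between the genotypes in these same arrays. Their differences between groups are therefore given as a description in all 3 comparisons, and the counts of their probes that pass a threshold are not evidence. They are 10 of 16593 genes named on the array. All 17 probes annotated to these symbols were taken, of 25697 on the array, and 15 of the 17 were above background on at least 2 arrays and entered the fit of 14141 probes. The study measured adipose tissue RNA on Illumina bead arrays, which read a labelled copy of the RNA with probes, of which some genes have several. All mice were of C57Bl6 background, obese on a high-fat diet and fasted for 5 h. The groups were wild type at 24 weeks of age (WT, n = 2), IL6 knock-out at 25 weeks (IL6_KO, n = 3) and sgp130Fc transgenic at 26 weeks (n = 3). sgp130Fc is a soluble form of the receptor gp130 joined to an antibody Fc part. It traps IL-6 that is bound to its soluble receptor. Age follows genotype, so the effects of both cannot be told apart. The labels number the replicates without naming separate animals, so the spread between them may in part be technical. The labels used here give neither the hour of collection, the fat depot and the sex nor the promoter that drives the transgene.

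The circadian clock is a feedback loop that runs in nearly every cell, fat cells included. The proteins BMAL1 (from Arntl) and CLOCK switch on genes that carry E-boxes in their promoters, among them the Per and Cry genes, Ciart, Dbp, Tef and the Nr1d genes. PER and CRY proteins then repress BMAL1 and CLOCK, and the REV-ERB proteins (from Nr1d1 and Nr1d2) repress Arntl through ROR elements. In rhythmic tissue Arntl therefore peaks at nearly the opposite time of day from the Per genes and Dbp. Glucocorticoids, feeding and fasting can shift the clock of peripheral tissues, and Per1 and Per2 respond to glucocorticoids directly.

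Promoter sequences of RefSeq (GRCm38.p6, from 250 bases before the annotated start of the gene to 50 bases from it on) were matched for 8 of the 10 genes, with 11 starts. None was matched for Per2 and Bhlhe40, so their promoters were not searched. Both strands were searched for the E-box CACGTG, the related E'-box CACGTT, the D-box TTATGTAA or TTACGTAA, the ROR element core TAGGTCA or TGGGTCA, and the cyclic AMP element TGACGTCA. None of these words overlapped another within the 11 sequences. CACGTG was found at 4 starts of 3 genes, Per1, Ciart and Tef, and in 7.15% of all 32851 promoters of that length. CACGTT was found in Nr1d1 (4.68% of all), on the opposite strand. Either word was found in 11.4% of all promoters. TTATGTAA occurred in Per3 (0.938% of all) and TAGGTCA in the second start of Arntl (2.61% of all). TTACGTAA (0.119% of all), TGGGTCA (3.98%) and TGACGTCA (1.79%) were in none of the 11. The windows of Dbp and Nr1d2, of the second start of Per1 and of the first start of Arntl held none of the words searched. This says only that these letters are not in these windows. The sequences below show windows with matches for Per1, Ciart, Per3, Nr1d1 and Arntl, so that the elements can be set beside the levels. Both Tef windows hold CACGTG and are not printed. Capitals mark the matches, and each sequence reads 5′ to 3′ on the strand of its gene. Per1 lies at chr11:69098699-69098998, plus strand. Ciart lies at chr3:95882179-95882478, minus strand, and holds CACGTG at 3 places. Per3 lies at chr4:151044616-151044915, minus strand, and holds TTATGTAA at both of its marked places. Nr1d1 lies at chr11:98775328-98775627, minus strand. Arntl lies at chr7:113207261-113207560, plus strand.
Per1: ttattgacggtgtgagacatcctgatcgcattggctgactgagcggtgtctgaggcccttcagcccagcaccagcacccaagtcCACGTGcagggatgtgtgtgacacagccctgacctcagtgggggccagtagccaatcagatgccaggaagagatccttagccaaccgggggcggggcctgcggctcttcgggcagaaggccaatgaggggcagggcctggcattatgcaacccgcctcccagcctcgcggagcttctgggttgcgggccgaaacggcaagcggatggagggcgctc
Ciart: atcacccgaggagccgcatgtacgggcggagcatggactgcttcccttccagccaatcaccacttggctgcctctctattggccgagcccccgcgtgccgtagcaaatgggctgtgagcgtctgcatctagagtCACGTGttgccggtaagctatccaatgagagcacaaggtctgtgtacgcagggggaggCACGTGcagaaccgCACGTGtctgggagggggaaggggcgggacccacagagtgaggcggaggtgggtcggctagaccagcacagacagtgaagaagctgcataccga
Per3: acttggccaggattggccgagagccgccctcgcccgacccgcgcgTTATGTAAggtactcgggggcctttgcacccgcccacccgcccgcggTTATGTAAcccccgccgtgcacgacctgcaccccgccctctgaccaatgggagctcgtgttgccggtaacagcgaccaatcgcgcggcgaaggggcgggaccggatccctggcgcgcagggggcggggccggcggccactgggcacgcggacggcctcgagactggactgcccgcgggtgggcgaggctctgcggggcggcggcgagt
Nr1d1: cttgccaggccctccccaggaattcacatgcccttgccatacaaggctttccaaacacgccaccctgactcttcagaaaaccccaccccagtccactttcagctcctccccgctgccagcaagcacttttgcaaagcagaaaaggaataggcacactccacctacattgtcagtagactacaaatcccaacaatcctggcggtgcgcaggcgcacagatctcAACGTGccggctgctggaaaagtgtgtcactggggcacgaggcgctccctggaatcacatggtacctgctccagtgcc
Arntl: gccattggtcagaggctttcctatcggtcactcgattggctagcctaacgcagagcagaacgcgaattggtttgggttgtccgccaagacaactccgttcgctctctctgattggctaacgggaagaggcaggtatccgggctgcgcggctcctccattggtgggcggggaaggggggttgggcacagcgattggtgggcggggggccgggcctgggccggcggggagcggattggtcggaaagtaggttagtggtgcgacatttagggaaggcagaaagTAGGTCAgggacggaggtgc

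**Figure D1:**
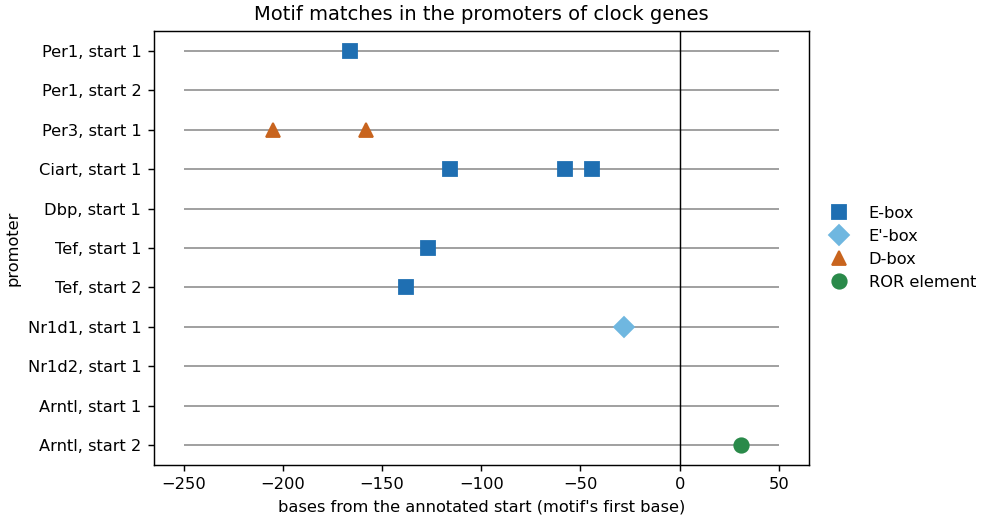
Positions of the motif matches in the 11 promoter windows. The horizontal axis gives the distance of a motif's first base from the annotated start in bases, and each line is a promoter. The E-boxes of Ciart lie at -116, -58 and -44, that of Per1 at -166, those of Tef at -127 and -138, and the ROR element of Arntl at 31.

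The arrays were alike in signal, with median intensities of 109.1 to 145 and 48.6% to 52.1% of probes above background. IL6_KO replicate 2 stood apart, with a mean correlation of 0.944 with the other arrays across probes (0.964 to 0.973 for the rest, and probes are not independent replicates). Of the 10 clock genes, 9 were highest and Arntl was lowest on replicate 2 among the 3 IL6_KO arrays. The deviations of the 9 from the group mean ran from 0.06 for Ciart to 1.14 for Dbp, and that of Arntl was -0.43. The share of all probes that were highest or lowest on this array was not computed, so the count is not read as particular to clock genes. The values of single genes without IL6_KO replicate 2 are given where they moved most. The tissue label was matched by the adipocyte genes Adipoq, Plin1, Cidec, Pparg and Lep, which were above background on all 8 arrays. Fabp4, on the same list of adipocyte genes, was above background on only 2 arrays.

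Of the 10 genes, Per2 had the largest difference of sgp130Fc fat from both other groups. Its protein is a core repressor of the loop. On the normalized log2 scale its brightest probe (ILMN_2987862) lay at 8.07 and 8.26 on the WT arrays, at 7.33, 7.93 and 7.33 on the IL6_KO arrays and at 10.08, 10.32 and 10.32 on the sgp130Fc arrays. The 3 groups did not overlap, in the order IL6_KO, WT, sgp130Fc. The sgp130Fc mean was 4.22-fold that of WT (log2 difference 2.08 ± 0.22, SE) and 6.55-fold that of IL6_KO (2.71 ± 0.20). IL6_KO minus WT was -0.63 ± 0.22, and -0.83 without IL6_KO replicate 2. A second probe, ILMN_2987863, had the same order, with means of 7.63 ± 0.13 (SD, n = 2) in WT, 7.09 ± 0.29 (n = 3) in IL6_KO and 9.63 ± 0.24 (n = 3) in sgp130Fc. The third, ILMN_1258523, was above background on 1 array and was not tested. In whole tissue, a change in the share of cells that express a gene and a change in RNA per cell cannot be told apart.

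Per1, the paralogue of Per2 and also a repressor, showed the same order. Its brightest probe (ILMN_2813484) lay at 9.70 and 8.94 in WT, at 8.04, 8.33 and 8.20 in IL6_KO and at 10.14, 10.27 and 10.30 in sgp130Fc. Here too no group overlapped another, and the sgp130Fc arrays had an SD of 0.08 (n = 3). The sgp130Fc mean was 4.14-fold that of IL6_KO (log2 difference 2.05 ± 0.20, SE), and lay 0.92 ± 0.23 above WT. IL6_KO minus WT was -1.13 ± 0.23. The WT arrays lay apart: without replicate 1 these differences from WT were 1.30 and -0.75, and without replicate 2 they were 0.54 and -1.51. The second probe, ILMN_2813487, differed by 2.32 ± 0.27 between sgp130Fc and IL6_KO and by 1.24 ± 0.31 and -1.08 ± 0.31 from WT. Per3, the third period gene, was dim. It was above background on 0 of 2 WT, 1 of 3 IL6_KO and 3 of 3 sgp130Fc arrays, with levels of 6.42, 5.92 and 5.39 on the latter. Its sgp130Fc mean was at least 1.82-fold higher than WT, computed against the detection limit of the WT arrays on the background-corrected scale. Its log2 difference from WT was 0.98 ± 0.32 (SE) there and 0.32 by quantile normalization without background correction, so the bound holds for the first scale alone.

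**Figure D2:**
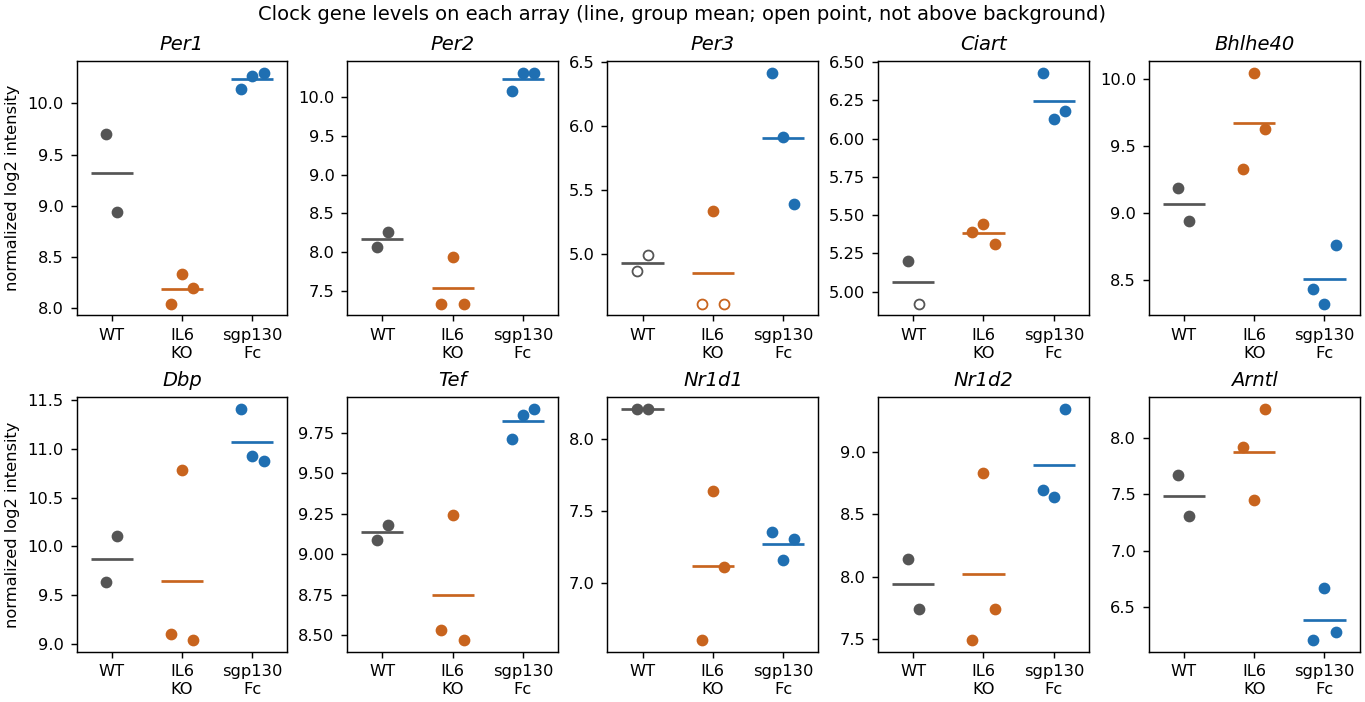
Level of each of the 10 clock genes (brightest probe) on each array. The vertical axis is the normalized log2 intensity, points are arrays in the order of their replicate number, lines are group means, and open points are arrays on which the probe was not above background. Per1 and Per2 are highest on the 3 sgp130Fc arrays (10.08 or more) and lowest in IL6_KO, while Arntl and Bhlhe40 are lowest on the sgp130Fc arrays.

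Ciart encodes CHRONO, a repressor that binds BMAL1. Its brighter probe (ILMN_3029489) lay at 5.20 and 4.92 in WT, at 5.39, 5.44 and 5.31 in IL6_KO and at 6.43, 6.13 and 6.18 in sgp130Fc. All sgp130Fc arrays lay above all others, and 1 of the 2 WT arrays was not above background. The sgp130Fc mean lay 1.19 ± 0.17 above WT and 0.87 ± 0.15 above IL6_KO on the log2 scale. Quantile normalization without background correction gave 0.41 and 0.32, and Ciart was then not called against IL6_KO. The dimmer probe ILMN_3102736 was above background on the 3 sgp130Fc arrays and on 0 arrays of the other groups. By that probe sgp130Fc was at least 1.27-fold higher than WT and at least 1.29-fold higher than IL6_KO. These bounds carry no sampling error and were computed on the background-corrected scale alone. The probe entered the fit only through the sgp130Fc arrays.

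Bhlhe40 encodes DEC1, a repressor that competes for E-boxes, and it ran against the Per genes. It lay at 9.19 and 8.94 in WT, at 9.33, 10.05 and 9.63 in IL6_KO and at 8.43, 8.32 and 8.76 in sgp130Fc. The order was the reverse of that of Per1 and Per2, with sgp130Fc lowest and IL6_KO highest and no overlap between groups. The sgp130Fc mean was 2.25-fold lower than that of IL6_KO (log2 difference -1.17 ± 0.21, SE), and -0.57 ± 0.24 from WT. IL6_KO lay 0.60 ± 0.24 above WT, and 0.41 above it without IL6_KO replicate 2.

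Dbp and Tef encode related activators that bind D-boxes and pass the rhythm on to output genes. Dbp lay at 9.63 and 10.11 in WT, at 9.10, 10.78 and 9.04 in IL6_KO and at 11.41, 10.93 and 10.87 in sgp130Fc. The sgp130Fc arrays lay above all others, and IL6_KO replicate 2, at 10.78, lay above both WT arrays while the other IL6_KO arrays lay below them. The log2 difference between sgp130Fc and IL6_KO was 1.43 ± 0.43 (SE), and 2.00 without IL6_KO replicate 2. Tef (ILMN_2676052) lay at 9.09 and 9.18 in WT, at 8.53, 9.24 and 8.47 in IL6_KO and at 9.71, 9.86 and 9.90 in sgp130Fc, again above all other arrays. Its sgp130Fc mean lay 0.68 ± 0.24 above WT and 1.07 ± 0.21 above IL6_KO, or 1.32 above IL6_KO without replicate 2. The other Tef probe, ILMN_2715400, was above background on 0 arrays.

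The genes of the REV-ERB repressors parted from each other. Nr1d1 (ILMN_1229091) lay at 8.21 on both WT arrays, at 6.60, 7.64 and 7.11 in IL6_KO and at 7.35, 7.16 and 7.30 in sgp130Fc. Both modified genotypes lay below WT, by similar amounts (-1.09 ± 0.27 in IL6_KO and -0.94 ± 0.27 in sgp130Fc, SE), and they overlapped each other. Without IL6_KO replicate 2 the IL6_KO difference was -1.36. These comparisons share the WT arrays. The difference between sgp130Fc and IL6_KO was 0.15, with a 95% interval of -0.39 to 0.69. A second probe, ILMN_2749669, gave -1.07 ± 0.20 and -1.05 ± 0.20 against WT.

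Nr1d2 (ILMN_2798993) lay at 8.14 and 7.74 in WT, at 7.49, 8.83 and 7.74 in IL6_KO and at 8.70, 8.64 and 9.35 in sgp130Fc. The sgp130Fc arrays lay above WT (0.95 ± 0.39) and overlapped IL6_KO through its replicate 2. Against IL6_KO the log2 difference was 0.88 ± 0.35, and 1.28 without that array. IL6_KO minus WT was 0.08 and turned to -0.33 without it. The dim probe ILMN_2602387 was above background on 4 arrays, and its groups overlapped in all 3 comparisons.

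Arntl, the activator of the loop, moved against the Per genes. It lay at 7.67 and 7.31 in WT, at 7.92, 7.45 and 8.26 in IL6_KO and at 6.21, 6.67 and 6.28 in sgp130Fc. All sgp130Fc arrays lay below all others, and WT and IL6_KO overlapped. The sgp130Fc mean was 2.81-fold lower than that of IL6_KO (log2 difference -1.49 ± 0.23, SE) and 2.15-fold lower than that of WT (-1.10 ± 0.26). IL6_KO minus WT was 0.39 ± 0.26. Without IL6_KO replicate 2 the differences were 0.60 for IL6_KO minus WT and -1.71 for sgp130Fc minus IL6_KO. By quantile normalization without background correction they were -0.61 for sgp130Fc minus WT and -0.88 for sgp130Fc minus IL6_KO.

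**Figure D3:**
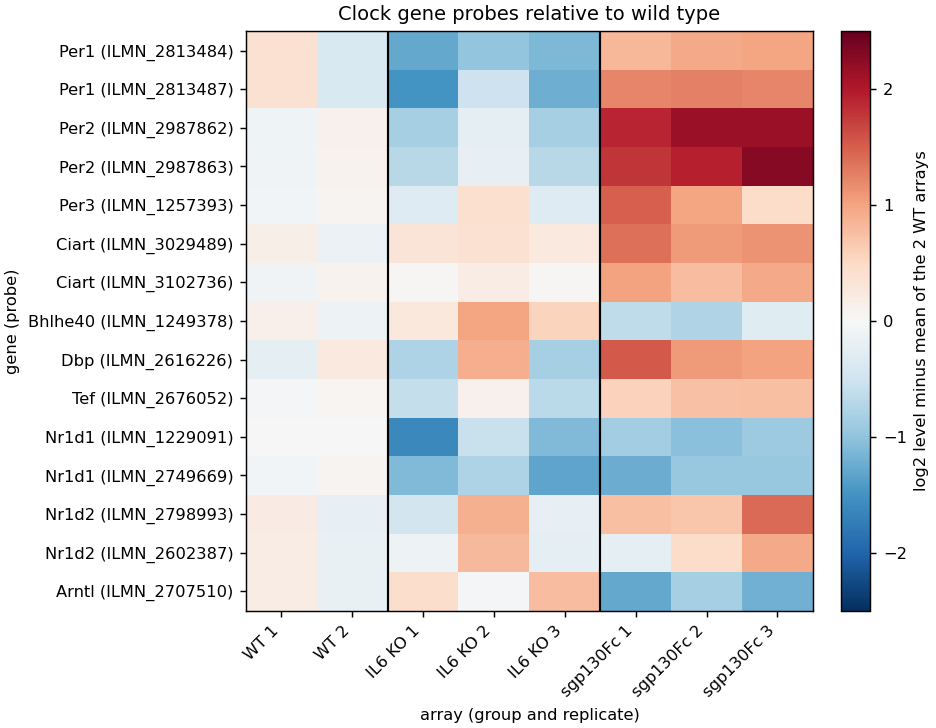
Levels of the 15 tested clock gene probes on each array, as the log2 level minus the mean of the 2 WT arrays (colour scale, red higher and blue lower). Rows are probes and columns are arrays, with lines between the groups. The probes of Per1 and Per2 are red on all 3 sgp130Fc arrays and blue on all 3 IL6_KO arrays, Arntl and Bhlhe40 are blue in sgp130Fc, and both Nr1d1 probes are blue in both modified genotypes.

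Counted over probes, 10 of the 15 tested member probes lay wholly above WT and 4 wholly below it in sgp130Fc. Over all 14141 probes the shares were 13.1% and 15.1%. For sgp130Fc against IL6_KO, 9 lay wholly above and 2 wholly below, against 13.1% and 12.6% of all probes. For IL6_KO against WT, 2 lay wholly above and 6 wholly below, against 18.5% and 20.2%. By the linear model of limma with Benjamini-Hochberg adjustment over all probes and a threshold of 0.05, 2 member probes were called in sgp130Fc minus WT, both of Per2 and both higher. Of all probes 0.0919% were called there and 0.0495% were called higher. In sgp130Fc minus IL6_KO 8 were called, against 1.27% of all probes. They were the higher probes of Per1, Per2 and Ciart, 6 in number (0.813% of all probes), and the lower probes of Bhlhe40 and Arntl, 2 in number (0.453% of all). In IL6_KO minus WT 0 were called, against 0.248% of all probes, while 1 probe, of Nr1d1, was called without IL6_KO replicate 2 and 2 probes, of Nr1d1 and Per1, without IL6_KO replicate 3. The Per2 calls against WT were absent without either WT array and without sgp130Fc replicate 2 or 3. Those against IL6_KO stood for the brightest probes of Per1 and Per2 with each array left out. Without sgp130Fc replicate 2 or 3, only 3 probes of Per1 and Per2 kept a call. The other 3 genes lost theirs without IL6_KO replicate 1 or any 1 sgp130Fc array, Bhlhe40 also without IL6_KO replicate 2 or either WT array. Nothing is read from these counts or from their stability, because the genes were chosen on these comparisons.

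**Figure D4:**
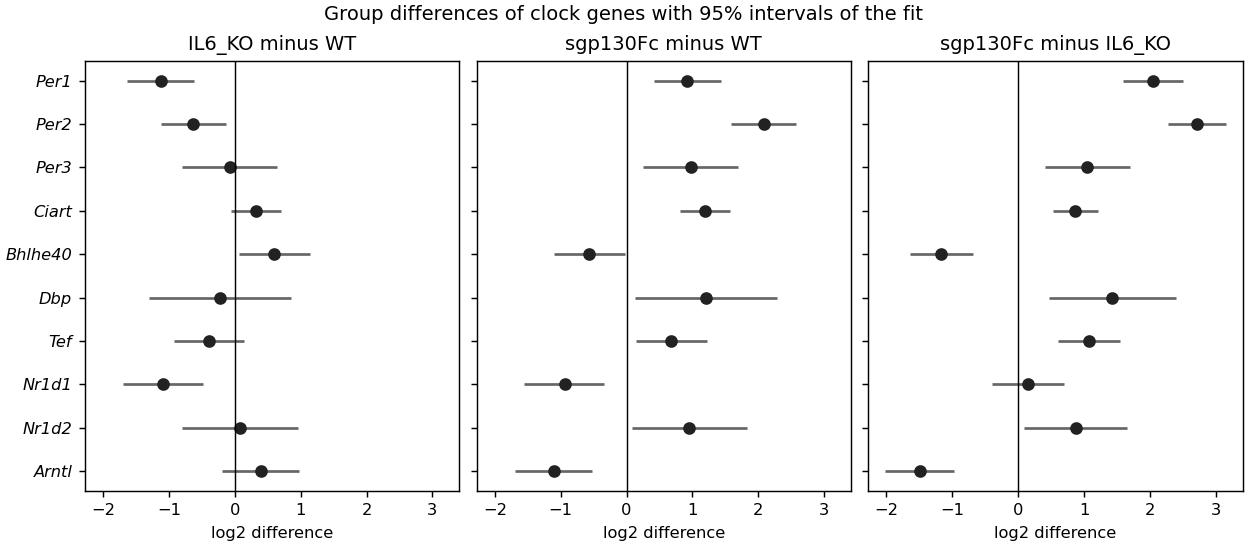
Log2 difference of each clock gene (brightest probe) in the 3 comparisons, with points for the estimate and bars for its 95% interval in the fit, given as a description. In sgp130Fc minus IL6_KO the values run from -1.49 for Arntl to 2.71 for Per2, and Nr1d1 is near 0 at 0.15.

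Of the clock genes outside the 10, no probe passed the test. A list of such genes, which leaves out the 10, was written with earlier results of these arrays known. Its counts are therefore a description, and nothing is read from the lack of calls. Of the list, 17 genes with a probe are counted here and 13 were tested, with 21 probes. By limma 0 of the 21 were called in each of the 3 comparisons. At an unadjusted p under 0.05 there were 2 in sgp130Fc minus WT (8.23% of all probes), 2 in IL6_KO minus WT (20.6%) and 4 in sgp130Fc minus IL6_KO (17.8%). Clock, the partner of BMAL1, lay at 9.97 and 9.41 in WT, at 9.44, 9.35 and 9.91 in IL6_KO and at 9.47, 9.58 and 9.63 in sgp130Fc. These groups overlapped in every comparison, and the log2 difference of sgp130Fc from IL6_KO was -0.01 with a 95% interval of -0.47 to 0.46. Arntl, which was chosen because it had moved between the genotypes, differed by -1.49 in that comparison.

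Npas2, a relative of CLOCK that is also repressed through ROR elements, was near background, and it was detected on 2 IL6_KO arrays and on 0 of the others. Its levels were 5.01, 4.69 and 4.98 in IL6_KO, 4.66 and 4.58 in WT, and 4.55, 4.42 and 4.41 in sgp130Fc, and it did not pass against IL6_KO (limma adjusted p = 0.183). No fold is given, since the sgp130Fc arrays were at background. The cryptochrome gene Cry2, whose protein represses together with PER, had means of 7.82 ± 0.35 for WT (SD, n = 2), 7.15 ± 0.39 for IL6_KO (n = 3) and 7.91 ± 0.10 for sgp130Fc (n = 3). It did not pass against IL6_KO (0.76 ± 0.22, SE, limma adjusted p = 0.138). Cry1, Arntl2 and Bhlhe41 were above background on 0 arrays.

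The remaining listed genes did not pass either. Rora, an activator at ROR elements, overlapped between groups in every comparison, and so did Nfil3, a repressor at D-boxes. Csnk1e, a kinase that marks PER for breakdown, lay 0.39 ± 0.18 (SE) above WT in IL6_KO and 0.33 ± 0.18 in sgp130Fc (limma adjusted p = 0.273 and 0.702). The output gene Usp2, a deubiquitinase, had an IL6_KO mean of 6.67 ± 0.53 (SD, n = 3), beside 7.41 ± 0.08 for WT (n = 2) and 7.33 ± 0.08 for sgp130Fc (n = 3). Its IL6_KO minus WT difference was -0.74 (limma adjusted p = 0.181), or -0.44 without IL6_KO replicate 2. Nampt, which makes the NAD precursor that links clock and metabolism, lay 0.84 ± 0.35 above WT in sgp130Fc (limma adjusted p = 0.581). The 13 genes had a median log2 difference of 0.12 in sgp130Fc minus WT, -0.01 in IL6_KO minus WT and 0.18 in sgp130Fc minus IL6_KO, and all probes had -0.01, 0.01 and -0.01.

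The tested genes that glucocorticoids induce were highest in sgp130Fc by their group means, and 7 of 8 had a mean below WT in IL6_KO. Those 7 differences ran from -0.15 for Klf9, whose arrays overlapped WT, to -1.37 for Fkbp5. The second probe of Tsc22d3 lay at -0.03. Of 10 listed, 8 were tested, with 9 probes. In sgp130Fc minus IL6_KO 4 of the 9 probes were called by limma, all higher, for Fkbp5, Pdk4, Tsc22d3 and Dusp1, against 0.813% of all probes called higher. All 9 had a positive difference there. In IL6_KO minus WT 1 was called, the lower Fkbp5, against 0.248% of all probes called. In sgp130Fc minus WT 0 were called by limma, against 0.0919% of all probes, with 7 at an unadjusted p under 0.05 against 8.23%. Sgk1, a kinase gene, was the exception in IL6_KO, with a mean of 11.20 ± 0.38 (SD, n = 3) beside WT arrays at 10.90 and 11.09 and an sgp130Fc mean of 11.69 ± 0.08 (n = 3). Its IL6_KO arrays overlapped both other groups. The median log2 difference of the 8 genes was 1.25, -0.53 and 0.71 in these comparisons, beside -0.01, 0.01 and -0.01 for all probes. The list was written with earlier results of these arrays known, so its counts are a description and nothing is read from them.

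Fkbp5, a chaperone partner of the glucocorticoid receptor, lay at 8.13 and 8.34 in WT, at 7.10, 6.68 and 6.82 in IL6_KO and at 9.35, 9.14 and 9.49 in sgp130Fc. No group overlapped another. Its log2 difference between sgp130Fc and IL6_KO was 2.46 ± 0.17 (SE, limma adjusted p = 0.000334), and it fell by 1.37 from WT to IL6_KO (limma adjusted p = 0.0385), a call that was lost without any 1 array other than IL6_KO replicate 3. Tsc22d3, which encodes the anti-inflammatory protein GILZ, rose by 1.57 ± 0.17 in sgp130Fc over IL6_KO (limma adjusted p = 0.00539), and its second probe lay 1.15 ± 0.34 higher (adjusted p = 0.139). Pdk4, a kinase that shuts off pyruvate oxidation and rises in fasting, rose by 2.56 ± 0.33 (limma adjusted p = 0.0114). Dusp1, a phosphatase of MAP kinases, rose by 1.06 ± 0.15 (limma adjusted p = 0.0177). Pdk4 and Dusp1 lost their calls without sgp130Fc replicate 2 or 3, and Dusp1 also without sgp130Fc replicate 1 or IL6_KO replicate 1. These genes were named after their values were seen, so their adjusted p-values are given as a description. The part of glucocorticoid signalling or fasting in the clock gene values was not tested.

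**Figure D5:**
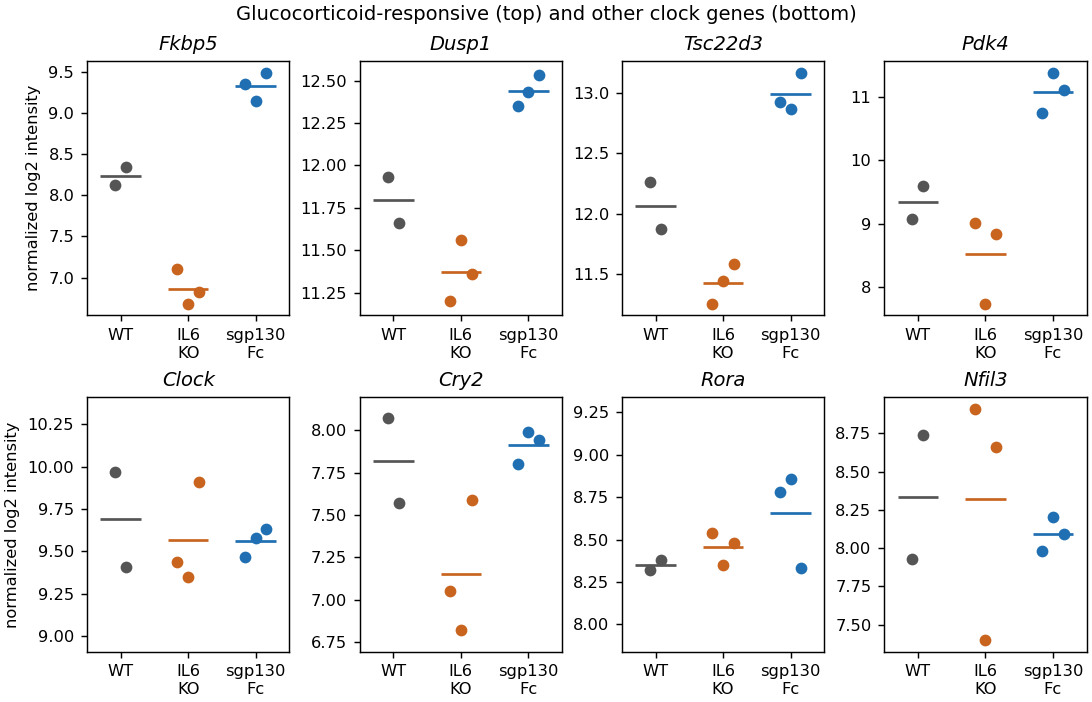
Levels of 4 glucocorticoid-responsive genes (top) and 4 other clock genes (bottom) on each array, as normalized log2 intensity, with a point per array and a line at the group mean. Fkbp5, Dusp1, Tsc22d3 and Pdk4 are highest on the 3 sgp130Fc arrays and lowest in IL6_KO, while the groups overlap for Clock, Rora and Nfil3.

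The genes most like Per2 over the 8 arrays, among 9780 other genes, were Tmem252 (Pearson r = 0.971), Dusp1 (0.967) and Lgals3bp (0.965), with no p because the 3 groups form separate clusters. In all, 51 genes had r above 0.9 with Per2. Tmem252 lay at 5.49 and 5.28 in WT, at 4.85, 4.86 and 4.70 in IL6_KO and at 6.41, 6.58 and 6.25 in sgp130Fc, without overlap. Lgals3bp, which encodes a galectin-binding glycoprotein, had means of 11.39, 11.28 and 11.75 in WT, IL6_KO and sgp130Fc. Most like Arntl were Cx3cr1, the fractalkine receptor gene of myeloid cells (0.973), the apolipoprotein gene Apoa2 (0.972) and the calcium sensor gene Hpca (0.962), with 27 genes above 0.9. Cx3cr1 lay at 6.90 and 6.61 in WT, at 7.40, 6.78 and 7.61 in IL6_KO and at 6.02, 6.44 and 5.99 in sgp130Fc. It was lowest on IL6_KO replicate 2 within its group, as Arntl was. This is no added likeness, since Cx3cr1 was picked by its correlation with Arntl over the same arrays.

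Cell type markers moved with the groups too, and mostly set IL6_KO apart. The summed normalized intensity of 6 adipocyte genes (Fabp4 above background on 2 arrays) was 47200 to 50300 in WT, 17400 to 43700 in IL6_KO and 45300 to 46300 in sgp130Fc, and the lowest value was that of IL6_KO replicate 2. For 4 macrophage genes it was 10400 to 11400, 16000 to 21700 and 13200 to 16300, with the highest on IL6_KO replicate 2. For 3 endothelial genes it was 1400 to 1590, 656 to 951 and 1340 to 1610, and for 3 erythroid genes 23900 to 24700, 5710 to 13800 and 22300 to 24700. WT and sgp130Fc did not overlap for the adipocyte sum, which was lower in sgp130Fc, nor for the macrophage sum, which was higher there. They were also apart for 3 smooth muscle genes, which summed to 6540 to 8990 in WT and 4760 to 5510 in sgp130Fc. The same held for the brown adipocyte gene Cidea, at 98.4 to 172 and 59.2 to 81.1. Ucp1, the other gene on the brown adipocyte list, did not pass the detection filter and was not tested. Of 30 markers tested, 0 were called by limma in sgp130Fc minus WT (0.0919% of all probes), with 4 at an unadjusted p under 0.05 (8.23% of all). In IL6_KO minus WT 2 were called (0.248% of all), the erythroid genes Hbb-bt and Alas2, with 17 at an unadjusted p under 0.05 (20.6% of all). In sgp130Fc minus IL6_KO 3 were called (1.27% of all), these and the smooth muscle gene Myh11, with 14 at an unadjusted p under 0.05 (17.8% of all). The part of cell composition in the clock gene differences was not tested.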

How the data were processed

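Per the file headers, the authors deposited a probe intensity for each of 8 arrays with a detection p-value beside it, and each column of p-values was matched to the array next to it, with a rank correlation against intensity of at weakest -0.966. The intensities are linear, without background subtraction or normalization. The authors also deposited normalized log2 values. GenomeStudio and limma are named without versions, per the submitters' processing notes.

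The intensities were normalized with neqc of limma 3.58.1 (R 4.3.3, offset 16), which gave values within 0.0548 of the deposited log2 values. A probe was tested where 2 or more arrays had a detection p under 0.05. One linear model covered the 3 groups (lmFit, then eBayes, 8.98 degrees of freedom), and within each comparison the 14141 p-values received the Benjamini-Hochberg adjustment. The fit was tested on simulated data. An "at least" fold sets the bright group's mean against the detection limit of the dim group's arrays and carries no sampling error. Symbols came from the array annotation, and 23962 gene identifiers were matched to RefSeq. The genes and lists were chosen with earlier results of these data known. Named were all 10 genes, of the other clock genes those called and the 2 of smallest p per comparison, and the 3 genes most correlated with Per2 and with Arntl. Clock, Rora and Nfil3 and the glucocorticoid-responsive genes given with values were named after their values were seen. A gene is represented by its brightest tested probe. Zbtb16 and Cebpd were not analysed here, and some listed clock genes are not reported here. Same-numbered arrays were checked for pairing: the correlations of their deviations from the group means ran from -0.353 to 0.18, so the numbers were not taken as pairs.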

Additional observations from a re-analysis of the deposited data

How the results depend on the processing

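The 16 alternatives were other normalizations, detection filters, fits and each array left out. Of 30 differences of the 10 genes, 26 kept their sign under every alternative that gave a value. The exceptions were Per3 (-0.32 to 0.11), Dbp (-0.80 to 0.07) and Nr1d2 (-0.33 to 0.34) in IL6_KO minus WT and Nr1d1 (-0.11 to 0.49) in sgp130Fc minus IL6_KO. Detection on all arrays left no value for Per3 and Ciart. Without a WT array, the lone WT array is assumed to vary like the other groups. The array weights did not reach their convergence tolerance. The causes of the changes below were not tested.

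In sgp130Fc minus WT, 13 probes were called in all, and this was 8 by quantile normalization without background correction, 6 without a detection filter, 5 with detection on all arrays, 28 with array weights, 20 with an intensity trend and 5 with a replicate block. Leaving out an array gave 3 (sgp130Fc replicate 2 or 3) to 21 (IL6_KO replicate 2). The 2 probes of the clock genes became 0 without a filter, 1 with the block and 0 to 2 with an array left out. The glucocorticoid-responsive probes, whose alternatives were chosen after seeing the data, went from 0 to 1 (Pdk4, without IL6_KO replicate 2), a range of 0 to 1.

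In IL6_KO minus WT, 35 probes were called, and this was 21 by quantile normalization, 9 without a filter, 13 with detection on all arrays, 268 with array weights, 64 with the trend, 5 with the compared groups alone and 12 with the block. Leaving out an array gave 6 (sgp130Fc replicate 2) to 778 (IL6_KO replicate 3). For the clock genes 0 became 4 with array weights and 0 to 2 with an array left out. For the glucocorticoid-responsive probes 1 became 0 without a filter, 0 with the compared groups alone, 0 with the block and 0 to 1 with an array left out.

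In sgp130Fc minus IL6_KO, 179 probes were called, and this was 107 without a filter, 1730 with array weights, 79 with the block and 24 (without sgp130Fc replicate 3) to 495 (without IL6_KO replicate 3). The 8 of the clock genes became 4 with the block and 3 to 8 with an array left out. Other clock genes went from 0 to 2 with array weights and 0 to 1 with an array left out. The 4 glucocorticoid-responsive probes became 9 with array weights, 7 with the trend and 2 to 5 with an array left out.

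Some differences that were not called turned sign. That of Cry2 in sgp130Fc minus WT was -0.02 with the block and -0.15 without WT replicate 2. That of Nampt in IL6_KO minus WT was -0.10 with array weights, -0.13 with the block and -0.20 (without WT replicate 2) to 0.31 (without WT replicate 1) with an array left out. That of Csnk1e in sgp130Fc minus IL6_KO was -0.16 (without IL6_KO replicate 3) to 0.05 (without IL6_KO replicate 2) with an array left out.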
